A study of Mus musculus with 21 samples.

Results

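Retinal cells captured through the glutamate transporter Glast at postnatal day 14 (P14) were compared with retinal cells captured at the same age through the receptor Notch1. The comparison holds every array labelled Glast+ P14 (3 arrays) or Notch1+ P14 (3 arrays), 6 of the 21 arrays of the series, and covers 12609 genes. All cells came from the retinas of C57BL/6 mice with no further allele or treatment named. Dissociated cells were bound by a biotin-conjugated antibody, against Glast or against Notch1, and held on anti-biotin microbeads, so that each group is whatever such a single-antibody capture retains. The submitters class Notch1+ cells as retinal progenitors and Glast+ cells as precursors of Müller glia and, later, adult Müller glia, and describe the arrays of an age as independent biological replicates. The series also holds Notch1+ cells from birth to P7 and Glast+ cells at P7, P21 and P28, which entered the estimate of the spread.

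Müller glia are the radial glia of the retina. They arise last from the progenitors that also give rods, bipolar and amacrine cells, span the whole tissue, clear glutamate and potassium from around the neurons and return retinaldehyde to photoreceptors. Notch1 is a receptor whose cleaved inner part switches on Hes and Hey repressors. The signal holds progenitors undifferentiated and favours glia, and blood vessels also carry Notch receptors and ligands. Glast, encoded by Slc1a3, takes up glutamate in radial glia, Müller glia and astrocytes. By P14 the mouse retina has nearly no dividing progenitors left.

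The capture antibody cannot be told apart from the day of scanning, because all Glast+ arrays were scanned on a single day and the Notch1+ arrays on 2 others (replicates 1 and 3 on one, replicate 2 on the other). The scanner software found 69.4% to 73.8% of the 34312 transcript probes on the Glast+ P14 arrays and 56.7% to 80.1% on the Notch1+ P14 arrays, and 0.769% to 1.1% against 11.4% to 32.5% lay at or below local background. Replicates correlated with r = 0.959 to 0.987 among the Glast+ and r = 0.936 to 0.973 among the Notch1+ arrays, across probes, which are not independent. Replicate 3 of Notch1+ stood apart: among the 4865 genes that passed the test it was the Notch1+ array nearest the Glast+ mean in 3135, against 829 and 901 for replicates 1 and 2. Values without it are given where it decided a result. In these bulk samples fewer cells of a type and less RNA per cell cannot be told apart.

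Glial, microglial and stress-response genes were higher in the Glast+ cells, and endothelial, mural, basement-membrane and cell-cycle genes were higher in the Notch1+ cells. Of 12609 genes, 4865 (38.6%) passed the test at a Benjamini-Hochberg adjusted p under 0.05 in limma, 2538 (20.1%) higher and 2327 (18.5%) lower in the Glast+ cells. Counts of called list members below are to be set against these shares. With median scaling in place of quantile normalization the split was 1493 higher and 2868 lower. At least 2-fold differences were seen in 3008 of the called genes, 1594 higher and 1414 lower, and at least 16-fold differences in 46 and 87. In 5304 genes (42.1%) the 3 arrays of one sort all lay above the 3 of the other. The median difference over all genes was −0.02 on the log2 scale, and the median size among called genes was 2.32-fold. Differences below are Glast+ minus Notch1+ on the log2 scale of normalized intensity, levels are log2 intensities in arrays 1, 2 and 3 of a sort, and genes are described as higher or lower only where they passed the test. Among the genes named below, the calls of Aldh1a1, Apoe, Ccnd1, Col2a1, Dkk3, Edn1, Fos, Gadd45g, Guca1b, Nfix, Npy, Sfrp2, Slc2a1, Stat3 and Tbx3 ended when only the compared arrays were fitted. Those of Gnao1, Kdm5b, Rcvrn, Slc4a3 and Thy1 ended with median scaling, and those of Atp1b2, Ctbp2, Fgf15, Glul, Klf4, Lss, Nfia, Pax6, Pde6b, Prox1, Rlbp1, Sc5d and Sox6 in either setting. Some named probes were not found on every array of their dimmer sort: they were found on 1 of 3 arrays for C3, Fgf1, S100b, Jag2 and Lef1, and on 2 of 3 for A2m, Il1b, P2ry12, Rgr, Sox8, Tnc, Heyl, Kcnj8 and Stra6. The probes of Slc22a8, Sox6, Acta2, Opn1sw, Ptgds and Rpe65 were likewise not found on every P14 array.

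**Figure D1:**
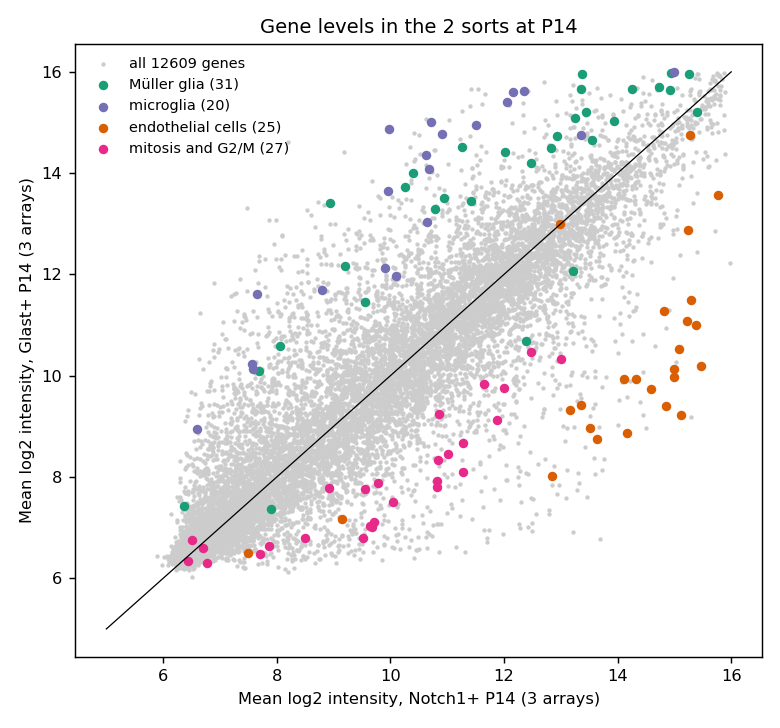
Mean log2 intensity of each of 12609 genes in the 3 Notch1+ P14 arrays (x axis) and the 3 Glast+ P14 arrays (y axis), with members of 4 gene lists coloured and the line of equal levels drawn. Microglial and most Müller glia genes sit above the line, and endothelial and most mitosis genes sit below it.

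The RNA of neither capture antigen passed the test. Slc1a3 was measured at 15.62, 15.64 and 15.83 in the Glast+ arrays and 14.60, 13.72 and 15.88 in the Notch1+ arrays. Replicate 3 of Notch1+, where the spot was saturated, lay above all Glast+ arrays, while its other replicates lay below them. The difference of 0.97 (SE 0.37, adjusted p = 0.0506) just missed the threshold, and without that array it was 1.54 and passed. Slc1a3 also passed after cyclic loess (1.52), from the authors' own values (1.35), without background correction, with array weights, with a trended prior and with 3 other ways of choosing probes. Notch1 was measured at 13.99, 13.98 and 14.59 in the Glast+ arrays and 14.24, 14.19 and 14.69 in the Notch1+ arrays. These values overlapped, and the difference was −0.19 (SE 0.19, adjusted p = 0.472). Under median scaling it was −0.73 and passed.

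Müller glia genes were higher in the Glast+ cells. Of 31 tested members of the Müller glia list, 25 were higher, 1 was lower and 5 did not pass, with a median of 1.79 against −0.02 over all genes. Rlbp1, the retinaldehyde-binding protein that Müller glia and pigment epithelium use in the visual cycle, had levels of 15.40, 15.33 and 14.91 in the Glast+ arrays and 13.74, 11.91 and 14.67 in the Notch1+ arrays. All Glast+ arrays were above all Notch1+ arrays, but the Notch1+ arrays differed from each other by more than the gap between sorts. The difference was 1.77 (SE 0.47, adjusted p = 0.00608), and the call ended with median scaling (1.4) and when only the compared arrays were fitted (1.77). Glul, the glutamine synthetase that converts the glutamate taken up by these cells, stood at 14.96, 14.88 and 15.22 in the Glast+ arrays and 14.49, 13.20 and 14.09 in the Notch1+ arrays. The sorts did not overlap, and the difference was 1.09 (SE 0.35, adjusted p = 0.0212). The Glul call ended with median scaling (0.65), when only the compared arrays were fitted, without replicate 3 of Glast+ (0.99) and without replicate 2 of Notch1+ (0.73).

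The transcription factors of the glial programme were among the clear differences. Sox9, which Müller glia require, reached 15.05, 14.73 and 15.50 in the Glast+ arrays and 12.72, 12.73 and 14.31 in the Notch1+ arrays, with no overlap and a difference of 1.84 (SE 0.32, adjusted p = 0.000185). Sox2, kept on in Müller glia after progenitors are gone, had levels of 13.91, 13.18 and 14.05 in the Glast+ arrays and 9.73, 9.22 and 11.83 in the Notch1+ arrays. The lowest Glast+ array exceeded the highest Notch1+ array, replicate 3, and the difference was 3.46 (SE 0.48, adjusted p = 2.28e-05). Sox8, the close relative of Sox9, was higher as well (2.40). Of the channel and transport genes, the water channel gene Aqp4 was measured at 13.11, 13.38 and 13.77 in the Glast+ arrays and 9.80, 7.93 and 9.07 in the Notch1+ arrays. Its difference of 4.49 (SE 0.33, adjusted p = 2.68e-08) came from the brightest probe, while another Aqp4 probe differed by 0.21. The carbonic anhydrase gene Car14 (3.25) and the transporter gene Abca8a (3.63) were also higher.

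Secreted and metabolic products of Müller glia showed the same direction. Clu, which encodes the secreted chaperone clusterin, differed by 2.57, the folate enzyme gene Aldh1l1 by 2.53, the metalloproteinase inhibitor gene Timp3 by 2.41, the ceruloplasmin gene Cp by 2.49 and the growth factor gene Tgfb2 by 2.04. Smaller differences were found for the apolipoprotein gene Apoe (0.70) and for Dkk3 (1.02), a secreted protein of the Dickkopf family. The Clu, Apoe and Dkk3 probes were saturated on 2 of the 3 Glast+ arrays, which compresses their differences. Spc25 (2.56), a kinetochore gene that is also a known Müller glia marker, was higher although kinetochore and spindle genes as a list were lower. The calcium-binding protein gene S100a16 was the lower member (−1.70, SE 0.31, adjusted p = 0.000274). The 5 members that did not pass were Slc1a3, the intermediate filament gene Vim (−0.20, SE 0.16, adjusted p = 0.379), Id1 (−1.15), Prdx6 (1.11) and Ptgds (−0.52). Id1 passed as lower in 5 of 20 alternatives, among them without replicate 1 or 2 of Glast+ (−1.5 and −1.47). Prdx6 passed as higher in 9 of 20, among them without replicate 3 of Notch1+ (1.49). Under median scaling Vim was −0.79 and passed as lower.

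The level of this list differed among Notch1+ arrays. Its median level was 14.49, 14.26 and 14.32 in the Glast+ arrays and 12.52, 11.91 and 13.04 in the Notch1+ arrays. Replicate 3 of Notch1+ carried the most of these transcripts in its group, and without it the median difference was 2.42 with 27 of 31 members higher. Defining Müller glia genes were therefore measured in both sorts, most of them at higher levels in the Glast+ arrays. The Glast+ label fits the markers Rlbp1, Glul, Aqp4, Clu, Apoe, Dkk3 and Sox9. The markers Slc1a3 (0.97) and Vim (−0.20) were not called, and the marker Kcnj10 had no matched probe. Among the progenitor markers, Fgf15, Hes5 and Lhx2 were higher in the Glast+ cells and Sfrp2, Ccnd1, Nes, Top2a and Mcm2 in the Notch1+ cells. The Fgf15 call ended without replicate 1 of Glast+ (1.22) and without replicate 1 or 2 of Notch1+ (1.05 and 0.97), and the Sfrp2 call without replicate 1 of Notch1+ (−1.22). The markers thus did not set the Notch1+ cells at P14 apart as progenitors, and the cells are called Notch1+ cells here. Microglial genes, given below, were also higher in the Glast+ arrays, and their part in the values of the Müller glia list was not tested.

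**Figure D2:**
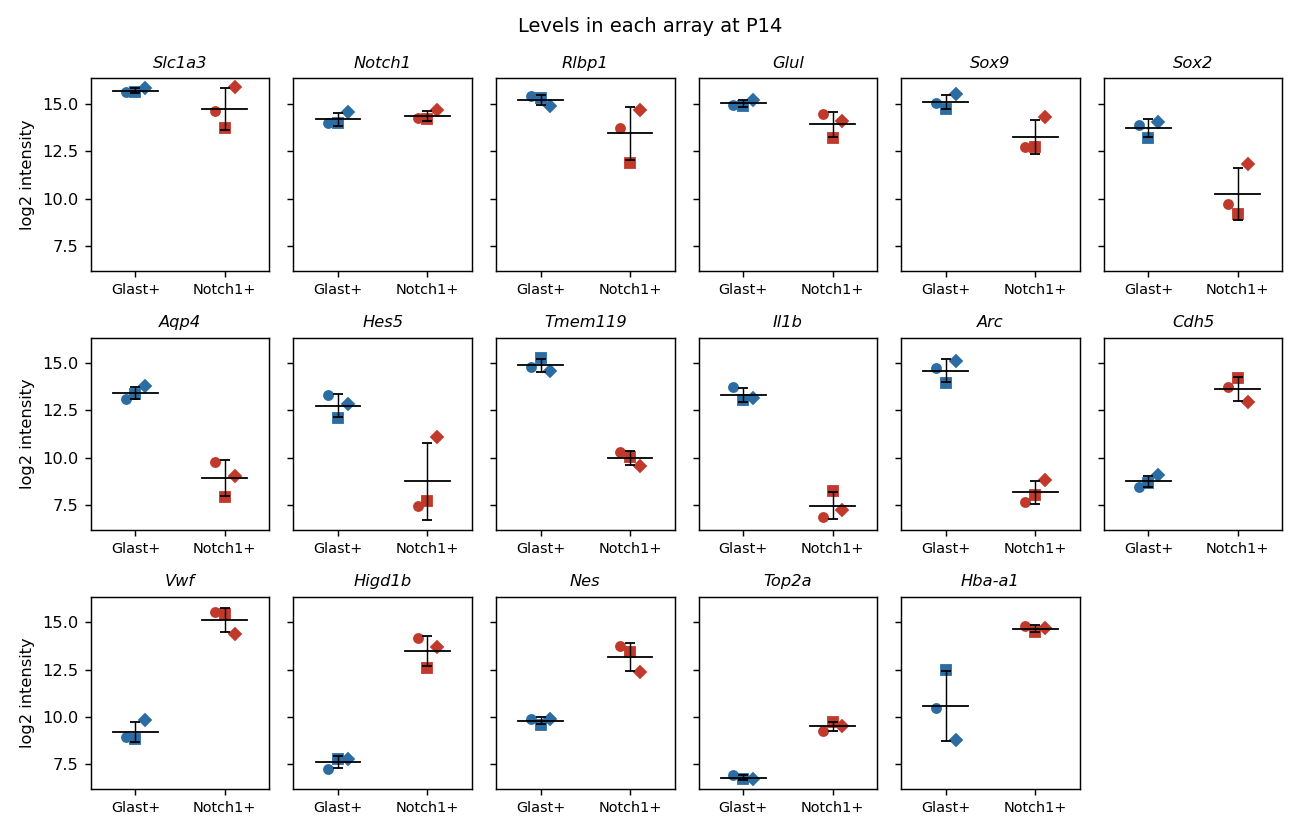
Log2 intensity of 17 genes in each P14 array, with Glast+ in blue and Notch1+ in red, circles, squares and diamonds for replicates 1, 2 and 3, and bars for mean ± SD (n = 3). Sox2, Aqp4, Tmem119, Il1b and Arc separate upward in Glast+ cells, Cdh5, Vwf, Higd1b, Nes and Top2a separate downward, and Slc1a3 and Notch1 overlap.

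Genes of glial transport and metabolism were partly higher. Of 22 tested, 11 were higher and 1 was lower, with a median of 0.91. The bicarbonate exchanger gene Slc4a3 (1.21), the cotransporter gene Slc4a4 (found on no Notch1+ array and at least 1.82-fold higher), the sodium pump subunit gene Atp1b2 (1.16) and the retinal dehydrogenase gene Aldh1a1 (2.01) were higher. The lower member was the glucose transporter gene Slc2a1 (−0.63), which vessel walls carry in abundance. Slc4a3 lost its call in 9 of 20 alternatives, among them without replicate 2 or 3 of Glast+ (1.12 and 1.12) and without replicate 1 or 2 of Notch1+ (1.13 and 1.11). Leaving out replicate 2 of Notch1+ reduced the higher members to 5, and leaving out replicate 3 raised the lower members to 4. Atp1b2 was no longer called without replicate 2 of Notch1+ (0.78), nor Slc2a1 without replicate 1 of either sort (−0.58 for Glast+ and −0.51 for Notch1+). Of 15 visual cycle and retinoid genes, 4 were higher and 1 was lower, against 20.1% and 18.5% of all genes, with a median of 0.36. The higher members included Rlbp1, Aldh1a1 and Ttr, the transthyretin that carries retinol and thyroid hormone (4.39). Stra6, a retinol uptake receptor, was lower (−2.16).

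Several progenitor transcription factors were higher in the Glast+ cells, while other genes of the progenitor list were higher in the Notch1+ cells. Of 18 tested members, 9 were higher and 4 lower, with a median of 0.73, which was 0.38 without replicate 2 and 1.4 without replicate 3 of Notch1+. Hes5, a repressor that Notch signalling switches on in progenitors and glia, was measured at 13.32, 12.12 and 12.84 in the Glast+ arrays and 7.44, 7.74 and 11.12 in the Notch1+ arrays. Replicate 3 of Notch1+ was the highest of its sort by a wide margin and still below every Glast+ array, and the difference was 3.99 (SE 0.62, adjusted p = 7.4e-05). The eye-field factors Six6 (2.45), Lhx2 (2.10) and Pax6 were higher too. For Pax6 the levels were 13.14, 13.02 and 13.97 in the Glast+ arrays and 10.68, 9.83 and 13.27 in the Notch1+ arrays. Replicate 3 of Notch1+ lay within the Glast+ range, so the sorts overlapped although the difference of 2.12 passed (SE 0.57, adjusted p = 0.00723). In the other direction, Nes, the intermediate filament nestin of progenitors and of growing vessels, stood at 9.91, 9.58 and 9.92 in the Glast+ arrays and 13.75, 13.41 and 12.35 in the Notch1+ arrays. No array overlapped, with a difference of −3.36 (SE 0.26, adjusted p = 3.35e-08), while another Nes probe differed by −0.22. Cdk4, the kinase partner of cyclin D1, was lower (−2.07), as was Sfrp2, a secreted Wnt modulator (−1.78, not called without replicate 1 of Notch1+). Ccnd1, cyclin D1 itself, had levels of 14.18, 13.80 and 14.80 in the Glast+ arrays and 14.79, 14.97 and 15.36 in the Notch1+ arrays. The arrays overlapped, and the difference of −0.78 (SE 0.23, adjusted p = 0.0127) was not called without replicate 2 of Glast+ (−0.55) or without replicate 3 of Notch1+ (−0.62).

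Most neurogenic factors did not pass. Of 19 tested, 2 were higher (Gadd45g at 2.64 and Btg2 at 2.45) and 1 was lower (Prdm1, a factor of photoreceptor precursors that also acts in other tissues, at −1.47), with a median of −0.21 whose sign changed in 4 of 19 alternatives. The proneural gene Neurog2 (−0.21) was not called, nor was Atoh7, found on 1 of the 6 arrays. Without replicate 3 of Notch1+ the higher members numbered 5. Without replicate 1 of Notch1+ 1 was higher and 2 were lower, and Gadd45g was not called (1.85).

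The Notch pathway divided by component. Of 24 tested genes, 5 were higher and 8 lower, against 20.1% and 18.5% of all genes, with a median of −0.23. Ligands were lower where they passed: Dll4, the ligand of sprouting vessels (−4.07, and −0.96 by another probe), Jag1 (−2.93) and Jag2 (−1.76). The receptors Notch4 (−3.91), known from endothelium, and Notch3 (−1.72), known from mural cells, were lower, as was the sheddase gene Adam10 (−2.57). The ligand genes Dll1 (−0.55) and Dll3 (−0.82) were not called. Among the target genes, Hes5, Hes1 (1.69) and Hey2 (1.72) were higher and Heyl (−2.99) was lower. Hey1 (−0.24) was not called, although it passed as lower in 1 of 20 alternatives. The higher members fell to 3 without replicate 2 of Glast+ or of Notch1+, and the median was −0.39 without replicate 3 of Glast+ and −0.04 without replicate 3 of Notch1+. Endothelial and mural marker genes moved with the lower receptors and ligands, with the values given below, and their part in these differences was not tested.

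Cell-cycle genes were higher in the Notch1+ cells. The list of mitosis and G2/M had 23 lower and 0 higher members among the 27 tested (median −2.25), and the list of DNA replication and G1/S had 18 lower and 0 higher among 26 (median −1.17). Top2a, the topoisomerase of dividing cells, had levels of 6.94, 6.72 and 6.74 in the Glast+ arrays and 9.26, 9.74 and 9.54 in the Notch1+ arrays. The arrays of a sort lay close together and the sorts far apart (−2.71, SE 0.21, adjusted p = 3.54e-08). The kinase genes Plk1 (−3.03) and Aurkb (−1.89), the anaphase activator gene Cdc20 (−3.18, and 0.10 by another probe), the spindle factor gene Tpx2 (−2.90) and the cyclin gene Ccnb1 (−2.60) were lower. Mcm6, a subunit of the replicative helicase, stood at 10.02, 9.37 and 8.65 in the Glast+ arrays and 12.92, 12.71 and 12.49 in the Notch1+ arrays. No array overlapped, and the difference was −3.36 (SE 0.35, adjusted p = 1.22e-06). Uhrf1, which guides maintenance methylation at replication forks, was lower (−3.00), and so were the other helicase genes Mcm2 (−1.67), Mcm5 (−2.39) and Mcm3 (−1.29). Pcna, the replication clamp, was not called (0.30). No array left out changed the mitosis count. Endothelial genes, listed below, were higher in the same arrays, and which cells carried the cell-cycle transcripts was not tested.

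Of 7 inhibitors of cyclin-dependent kinases, Cdkn1b (p27), which restrains the cell cycle, was higher (2.75), Cdkn2b was lower (−1.58) and the others did not pass. Without replicate 3 of Notch1+ 3 of them were lower. Among 24 genes acting on chromatin or DNA methylation 8 were lower and 1 was higher, against 18.5% and 20.1% of all genes. Together these calls lay near the 38.6% of all genes that were called. The median was −0.12 (−0.24 without replicate 1 of Notch1+). Besides Uhrf1, the de novo methyltransferase gene Dnmt3b (−2.10), the remodeller gene Smarca4 (−1.38) and the NuRD subunit gene Mbd3 (−1.28) were lower, and the histone demethylase gene Kdm5b was higher (1.11). Dnmt1 (−0.10) and Ezh2 (0.68) were not called, and Ezh2 passed as higher without replicate 2 of Notch1+ (0.88). Without that array or replicate 1 of Glast+ the higher members numbered 2.

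**Figure D3:**
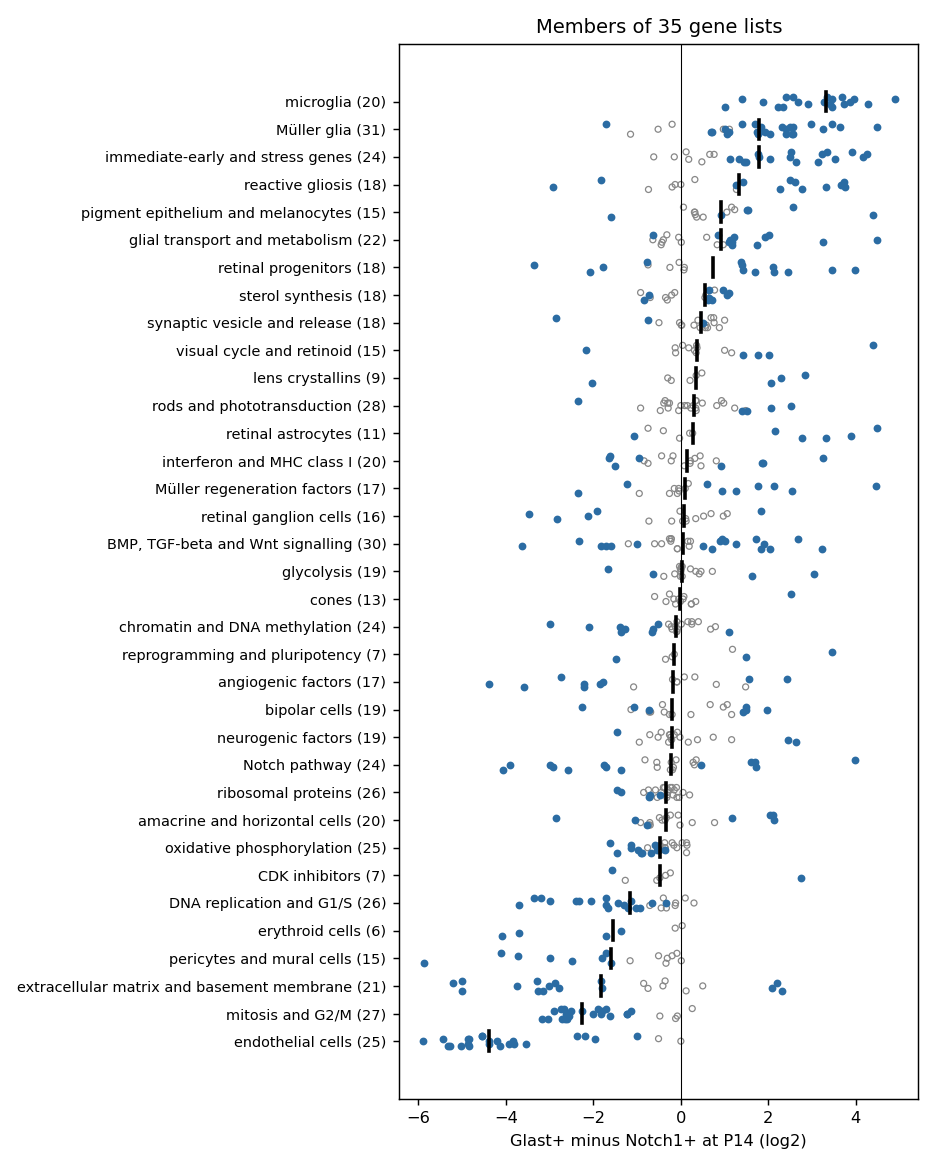
Glast+ minus Notch1+ difference at P14 (log2, x axis) of the tested members of 35 gene lists (number tested in brackets), ordered by their median (black bar), with filled points for called members and open points for the rest. The microglia list has the highest median (3.31) and the endothelial list the lowest (−4.38).

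Microglial genes were higher in the Glast+ cells throughout the list. All 20 tested members were higher, with a median of 3.31, and 19 or 20 were with any Glast+ array or Notch1+ replicate 1 or 3 left out (18 without Notch1+ replicate 2). The list's median level was 14.45, 14.47 and 13.69 in the Glast+ arrays and 10.29, 9.71 and 11.74 in the Notch1+ arrays, so that the sorts did not overlap. Tmem119, a surface protein of resident microglia, was measured at 14.78, 15.24 and 14.59 in the Glast+ arrays and 10.30, 10.05 and 9.59 in the Notch1+ arrays and differed by 4.89 (SE 0.28, adjusted p = 2.11e-09). The fractalkine receptor gene Cx3cr1 had levels of 14.76, 15.47 and 14.77 in the Glast+ arrays and 10.81, 9.69 and 11.68 in the Notch1+ arrays and a difference of 4.27 (SE 0.39, adjusted p = 2.21e-07). In both genes each Glast+ array lay far above each Notch1+ array. The myeloid transcription factor gene Spi1 (3.96), the complement genes C1qa (3.28), C1qb (3.45) and C1qc (3.35), the adaptor gene Fcer1g (3.87) and the purinergic receptor gene P2ry12 (2.67) were higher.

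Arc, an immediate-early gene known from active neurons, had the largest called difference in this direction, at 14.74, 13.96 and 15.11 in the Glast+ arrays and 7.67, 8.06 and 8.86 in the Notch1+ arrays. Each Glast+ array was more than 5 log2 units above the highest Notch1+ array, and the difference was 6.41 (SE 0.71, adjusted p = 2e-06). Il1b, the cytokine interleukin 1 beta of activated microglia and macrophages, stood at 13.73, 13.06 and 13.18 in the Glast+ arrays and 6.90, 8.28 and 7.25 in the Notch1+ arrays, with a probe found on 2 of 3 Notch1+ arrays. The difference was 5.84 (SE 0.36, adjusted p = 4.84e-09). Its relative Il1a was found on no Notch1+ array and was at least 24.1-fold higher (adjusted p = 1.36e-06). The transcription factor gene Cebpb, which acts in inflammation, was measured at 13.39, 12.68 and 13.18 in the Glast+ arrays and 7.94, 7.61 and 8.08 in the Notch1+ arrays, and Bcl6, a repressor gene, at 13.03, 13.40 and 13.38 in the Glast+ arrays and 8.57, 8.52 and 8.53 in the Notch1+ arrays. Both showed tight replicates and wide gaps, of 5.21 (SE 0.24, adjusted p = 3.47e-10) and 4.73 (SE 0.17, adjusted p = 3.85e-11). The others among the 15 largest were the chemokine gene Cxcl2 (5.09), Ecrg4 (4.94), Tmem119, and the leukocyte genes Rgs1 (5.22, and 0.92 by another probe), Pld4 (4.71), Gpr183 (4.69), Plek (4.69, and 1.88 by another probe), Blnk (4.65, and 2.50 by another probe), Fgd2 (4.65) and Fcgr2b (4.57).

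Of 24 immediate-early and stress genes 17 were higher and 0 lower, with a median of 1.78. Egr2, a zinc-finger factor, was measured at 14.23, 13.16 and 14.15 in the Glast+ arrays and 8.60, 8.85 and 11.59 in the Notch1+ arrays and Atf3, a factor of the stress response, at 15.48, 15.36 and 15.15 in the Glast+ arrays and 10.85, 11.09 and 12.30 in the Notch1+ arrays. The sorts were fully separate in both (4.17 with SE 0.64, adjusted p = 6.09e-05, and 3.92 with SE 0.31, adjusted p = 4.62e-08). Hspa1a, an inducible heat-shock chaperone gene, differed by 4.25, the integrated stress factor gene Ddit3 by 3.53, the AP-1 genes Junb by 3.33, Jun by 1.77 and Fos by 1.44, and the orphan receptor gene Nr4a1 by 2.50. Myc (−0.15, called as lower without replicate 3 of Notch1+ at −0.50) and Dusp1 (0.76) were not called, and Egr1 was saturated on all Glast+ and 2 Notch1+ arrays, so that its size could not be measured. The list's median level was 14.22, 13.53 and 14.87 in the Glast+ arrays and 11.64, 11.62 and 12.04 in the Notch1+ arrays. Microglial genes were higher in the same arrays, and their part in these values was not tested.

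Genes of reactive gliosis were higher in 10 and lower in 2 of 18 cases, with a median of 1.34. Gfap, the intermediate filament of astrocytes and reactive Müller glia, was found on no Notch1+ array and was at least 6.84-fold higher in Glast+ cells (adjusted p = 0.000556). Another Gfap probe differed by 0.34 only, and the Gfap difference ran from 1.56 to 3.66 over the alternatives. Socs3, which curbs cytokine signalling, was higher (3.74), as were A2m (3.73), the complement gene C3 (3.66) and Serpina3n (2.60). Lower members were Timp1, a metalloproteinase inhibitor (−2.93), and the endothelin gene Edn1 (−1.82), the latter not called without replicate 2 of Glast+ (−1.57) or replicate 1 or 2 of Notch1+ (−1.55 and −1.26). Lcn2, a marker of strong gliosis, did not pass (0.00). Microglia also express C3, and the share of either cell type was not tested. In the list of interferon response and MHC class I, 4 of 20 members passed as higher and 4 as lower. These counts lay near the shares of all genes, 20.1% higher and 18.5% lower. The median of this list was 0.14, and its sign changed in 3 of 19 alternatives. Irf8 (3.25), a factor of the microglial lineage, Irf1 (1.85) and H2-K1 (1.88) were higher, and the membrane protein genes Ifitm2 (−1.61) and Ifitm3 (−1.51) were lower. Without replicate 3 of Notch1+ the lower members numbered 7.

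**Figure D4:**
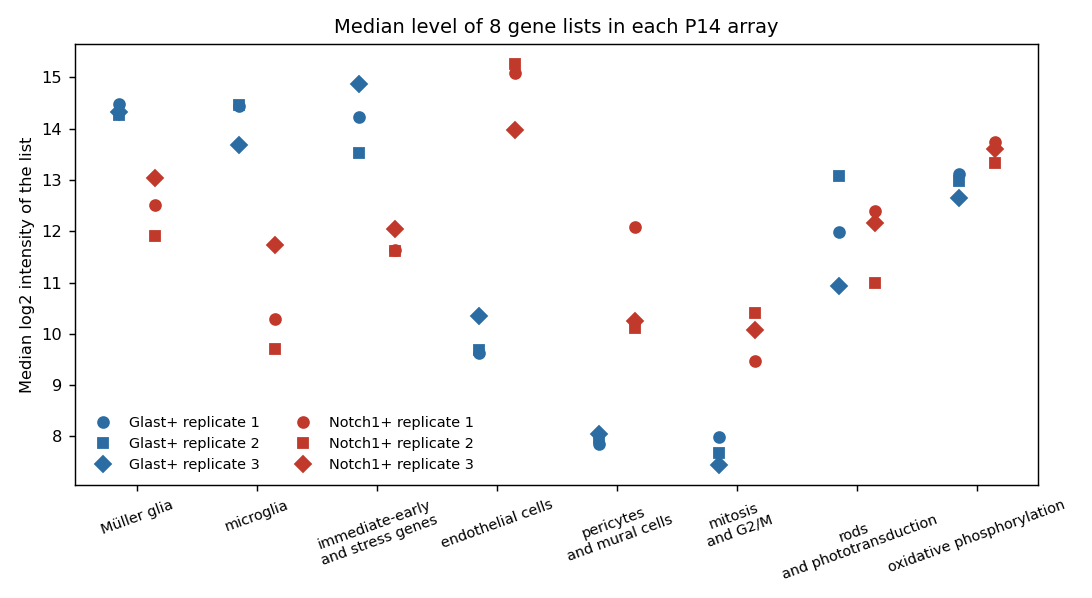
Median log2 intensity (y axis) of 8 gene lists in each P14 array, blue for Glast+ and red for Notch1+, with circles, squares and diamonds for replicates 1, 2 and 3. The sorts do not overlap in 7 of the lists and overlap in the rod list, and replicate 3 of Notch1+ is the nearest to Glast+ in the Müller glia, microglia and endothelial lists.

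Endothelial genes were the main opposite group. Of 25 tested, 23 were lower in the Glast+ cells and 0 higher, with a median of −4.38, and the count was 23 with any P14 array left out. The list's median level was 9.63, 9.69 and 10.35 in the Glast+ arrays and 15.09, 15.26 and 13.98 in the Notch1+ arrays. Cdh5, the cadherin of endothelial junctions, was measured at 8.49, 8.69 and 9.10 in the Glast+ arrays and 13.73, 14.19 and 12.96 in the Notch1+ arrays, with a difference of −4.86 (SE 0.35, adjusted p = 2.16e-08). Vwf, the clotting factor carrier stored by endothelium, stood at 8.96, 8.86 and 9.83 in the Glast+ arrays and 15.52, 15.44 and 14.40 in the Notch1+ arrays, a difference of −5.90 (SE 0.48, adjusted p = 6.98e-08). In each gene replicate 3 was the lowest Notch1+ array and remained well above the Glast+ arrays. The angiopoietin receptors Tie1 (−4.84) and Tek (−4.54), the adhesion molecule gene Pecam1 (−4.14) and the factor genes Sox17 (−3.84) and Sox18 (−4.84) were lower. The probe of Cldn5, the claudin of the vessel barrier, was saturated on every Notch1+ array, so that the ratio is a bound, at least 4.61-fold lower in Glast+ cells (adjusted p = 1.79e-06). The VEGF receptor genes Kdr (0.00) and Flt1 (−0.51) did not pass, although Flt1 passed as lower in 2 of 20 alternatives.

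Most of the 15 largest differences in this direction were also of genes known from vessels. Pcdh12, a protocadherin of endothelium, was measured at 6.66, 6.53 and 7.12 in the Glast+ arrays and 14.19, 14.13 and 12.76 in the Notch1+ arrays. The difference of −6.92 (SE 0.44, adjusted p = 5.52e-09) was the largest of all called genes in size, although another Pcdh12 probe differed by −0.87. Prnd, which encodes the prion-like protein doppel of brain endothelium, stood at 6.88, 6.61 and 7.24 in the Glast+ arrays and 13.75, 13.33 and 12.58 in the Notch1+ arrays, and Ramp2, the adrenomedullin receptor partner, at 9.65, 8.70 and 9.22 in the Glast+ arrays and 15.56, 15.55 and 14.75 in the Notch1+ arrays. Both were separated widely (−6.31 with SE 0.34, adjusted p = 1.44e-09, and −6.10 with SE 0.35, adjusted p = 2.11e-09). The endothelial genes Adgrl4 (−5.59), Nostrin (−5.56), Hspa12b (−5.44), Ushbp1 (−5.50, and −3.55 at its smallest among the alternatives) and Robo4 (−5.44, and −1.36 by another probe) followed. Ctsw (−5.55), C130074G19Rik (−5.53), Meox1 (−5.53), Unc45b (−5.53) and Smg6 (−5.45) made up the rest with Vwf and the mural gene Higd1b.

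Of 15 pericyte and mural genes 8 were lower and 0 higher, with a median of −1.59 (−1.04 without replicate 1 of Notch1+). Higd1b, a pericyte marker, was measured at 7.25, 7.78 and 7.80 in the Glast+ arrays and 14.15, 12.59 and 13.68 in the Notch1+ arrays, fully separated with a difference of −5.86 (SE 0.45, adjusted p = 3.54e-08). The subunits of the pericyte potassium channel, Abcc9 (−4.10) and Kcnj8 (−3.72), the G-protein regulator gene Rgs5 (−2.48) and the PDGF receptor gene Pdgfrb (−1.59) were lower, the last not called without replicate 1 of Notch1+ (−1.04). The smooth-muscle genes Acta2 (0.01), Tagln (−0.31) and Myh11 (−0.51) were not called, and Myh11 passed as lower without replicate 3 of Notch1+ (−0.91). Of 6 erythroid genes 4 were lower, including the globin gene Hba-a1 with levels of 10.48, 12.50 and 8.77 in the Glast+ arrays and 14.81, 14.48 and 14.70 in the Notch1+ arrays. The Notch1+ arrays agreed closely, the Glast+ arrays spread over more than 3 log2 units, and the difference was −4.08 (SE 0.86, adjusted p = 0.00106). Alas2, the first haem enzyme of red cells, was lower too (−3.71).

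Matrix and basement-membrane genes were lower in 12 and higher in 3 of 21 cases, with a median of −1.83. Nid1, a nidogen that links laminin to collagen, stood at 9.48, 8.76 and 9.44 in the Glast+ arrays and 14.59, 14.91 and 13.82 in the Notch1+ arrays, with a difference of −5.21 (SE 0.47, adjusted p = 1.9e-07). No array overlapped, and the laminin chain genes Lama4 (−5.01), Lamb1 (−4.99) and Lamc1 (−3.02) were likewise lower. The probe of the basement-membrane collagen gene Col4a1 was saturated on all Notch1+ arrays, and the gene was at least 13.4-fold lower in Glast+ cells, with adjusted p = 1.69e-07. Col4a2, saturated likewise, was at least 7.35-fold lower, with adjusted p = 4.67e-06. The higher members were Col9a1 (2.30, and 0.05 by another probe), Col2a1 (2.08, and 0.04 by another probe) and Tnc (2.19, and −0.06 by another probe), of which Col9a1 is a Müller glia marker in the mouse. Among 17 angiogenic factors, 2 were higher and 7 lower, with a median of −0.19 (−0.31 without replicate 2 and −0.42 without replicate 3 of Glast+). Apln, the apelin of sprouting tip cells, was lower (−4.38), as were Angptl4 (−3.58, and −0.70 by another probe), Angpt2 (−2.74, and −0.69 by another probe) and the hypoxia factor gene Epas1 (−1.84). Serpinf1, which encodes the antiangiogenic factor PEDF, was higher (2.43), as was Fgf1 (1.55), and Vegfa was called only without replicate 3 of Notch1+ (2.13) or with array weights, not otherwise (1.48). The endothelial list moved with these genes, and its part in the matrix and angiogenic values was not tested.

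Promoters are shown for 2 genes of a list that was higher and 2 of a list that was lower. Each pair had the smallest adjusted p among members of its list with a promoter in the table. Genes on 1 chromosome were left out of this choice. The purpose is to let a reader compare the start regions of genes that moved in opposite directions. They are the glial genes Spc25 and Timp3 and the endothelial genes Slc38a5 (−5.02) and Egfl7 (−4.86, and −0.56 by another probe). Sequences are from RefSeq (GRCm38.p6) and run 5′ to 3′ on the gene's strand over 300 bases ending 50 bases after the start. Matches to AGGAAG or its reverse complement CTTCCT, a sequence that ETS factors bind, are in capitals. Only this form of the ETS site was searched. Spc25 lies at chr2:69206164-69206463 on the minus strand, Timp3 at chr10:86300162-86300461, Slc38a5 at chrX:8271131-8271430 and Egfl7, by the first of 3 starts listed, at chr2:26580833-26581132, these on the plus strand.
Spc25: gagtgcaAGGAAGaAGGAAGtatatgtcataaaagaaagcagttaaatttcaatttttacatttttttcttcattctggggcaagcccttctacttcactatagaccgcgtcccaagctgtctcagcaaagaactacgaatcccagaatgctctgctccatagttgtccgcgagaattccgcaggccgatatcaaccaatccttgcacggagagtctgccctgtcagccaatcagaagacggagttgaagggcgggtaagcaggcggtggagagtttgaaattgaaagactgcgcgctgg
Timp3: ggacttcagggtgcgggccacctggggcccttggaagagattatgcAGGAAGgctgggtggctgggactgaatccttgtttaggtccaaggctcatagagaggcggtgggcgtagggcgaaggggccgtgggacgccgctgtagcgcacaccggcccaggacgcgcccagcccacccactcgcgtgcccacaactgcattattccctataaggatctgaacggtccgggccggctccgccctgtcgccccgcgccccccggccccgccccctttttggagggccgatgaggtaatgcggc
Slc38a5: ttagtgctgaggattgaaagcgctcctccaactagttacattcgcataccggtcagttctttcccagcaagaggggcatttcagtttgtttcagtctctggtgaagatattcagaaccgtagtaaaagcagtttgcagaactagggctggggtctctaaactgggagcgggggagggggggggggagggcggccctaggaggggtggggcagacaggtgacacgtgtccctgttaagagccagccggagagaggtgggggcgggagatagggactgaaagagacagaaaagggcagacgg
Egfl7: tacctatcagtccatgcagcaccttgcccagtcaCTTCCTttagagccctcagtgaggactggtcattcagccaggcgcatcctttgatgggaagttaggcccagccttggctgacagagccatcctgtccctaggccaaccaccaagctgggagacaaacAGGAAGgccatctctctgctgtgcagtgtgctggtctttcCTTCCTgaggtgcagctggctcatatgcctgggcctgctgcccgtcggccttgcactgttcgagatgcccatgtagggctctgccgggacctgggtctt
AGGAAG or its reverse complement occurs 2 times in Spc25, 1 time in Timp3, 3 times in Egfl7 and nowhere in this window of Slc38a5. In the shares that follow, a list counts only the first listed start of each gene, whereas all promoters count every listed start. On either strand AGGAAG was held by 8 of 14 endothelial promoters in the table (57.1%), by 9 of 21 Müller glia promoters (42.9%), by 8 of 20 rod promoters (40.0%) and by 35.4% of all 32851 promoters. ACAAAG, bound by SOX factors (reverse complement CTTTGT), was held by 6 of 21 Müller glia, 3 of 14 endothelial and 18.7% of all promoters. TAATCC, bound by OTX2 and CRX (reverse complement GGATTA), was held by 9 of 20 rod, 3 of 21 Müller glia and 7.06% of all promoters. Matches to ACAAAG and AGGAAG can overlap by shared letters, and a match is a description of the letters only.

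Of 28 rod and phototransduction genes, 4 were higher and 1 was lower, against 20.1% and 18.5% of all genes, with a median of 0.31 whose sign changed in 3 of 19 alternatives. Guca1b (2.52, and 1.16 and not called with array weights), a cyclase activator, and Gnat1 (2.05), the transducin alpha subunit, were higher. Pde6b (1.51) and Rcvrn (1.4) passed but lost the call without replicate 1 or 2 of Glast+ (1.51 and 1.16 for Pde6b, 1.36 and 1.18 for Rcvrn) or replicate 2 of Notch1+ (1.06 and 1.19). Rcvrn also lost it without replicate 3 of Notch1+ (1.4). Rgs9, which ends the light response, was lower (−2.36). The higher members numbered 7 without replicate 3 of Glast+ or replicate 1 of Notch1+, and 2 without replicate 1 or 2 of Glast+ or replicate 2 of Notch1+. The rod list's median level ran from 10.94 to 13.07 in the Glast+ arrays and from 10.99 to 12.40 in the Notch1+ arrays, so the sorts overlapped.

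Of 13 cone genes only Guca1b passed (median −0.01, sign changed in 8 of 19 alternatives), and the opsin genes Opn1sw (0.24) and Opn1mw (−0.34) did not. Counts in the next 3 lists lay near the 38.6% of all genes that were called. Among 19 bipolar genes 4 were higher and 3 lower (median −0.20, sign changed in 8 of 19 alternatives), with Gnao1, a G protein of ON bipolar cells, at 1.5 and Pcp2 at −2.26. The higher bipolar members numbered 2 without replicate 2 of Glast+ or replicate 1 or 2 of Notch1+, and 6 without replicate 3 of Notch1+. Of 20 amacrine and horizontal cell genes 4 were higher and 3 lower (median −0.35), including the peptide gene Npy (2.11) and Prox1 (2.04), a factor of horizontal cells, and in the other direction the syntaxin gene Stx1a (−2.86). Ganglion cell genes were higher in 1 and lower in 4 of 16 cases (median 0.08, sign changed in 2 of 19 alternatives), and without replicate 3 of Notch1+ 3 were higher. Rbpms (−3.48), an RNA-binding protein of ganglion cells that muscle and mural cells also express, and Stmn2 (−1.92), a tubulin regulator of neurons, were lower, Thy1 (1.84) was higher, and the defining factor genes Pou4f1 and Pou4f2, found on no Notch1+ array, were not called. Of 18 synaptic vesicle genes 1 was higher (Ctbp2 at 0.51) and 2 lower, with a median of 0.47 (0.27 without replicate 2 of Glast+, 0.30 and 0.23 without replicates 1 and 2 of Notch1+), and without replicate 3 of Notch1+ the higher members numbered 5.

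Markers of further retinal cells varied. Of 11 astrocyte genes 5 were higher and 1 lower, with a median of 0.27. The median was 0.54 without replicate 3 of Glast+ and 0.12, 0.56 and 0.89 without replicates 1, 2 and 3 of Notch1+. Pdgfra, the receptor of the astrocyte lineage, stood at 15.42, 15.48 and 15.79 in the Glast+ arrays and 10.94, 10.63 and 13.45 in the Notch1+ arrays. The sorts were separate, with a difference of 3.89 (SE 0.50, adjusted p = 9.91e-06). S100b (2.16) and the adhesion receptor gene Cd44 (3.32, and 0.18 by another probe) were higher, while Pax2 (0.27), which defines retinal astrocytes, was not called and the connexin gene Gja1 (−1.06) was lower. The Gja1 call ended without replicate 1 or 2 of Glast+ (−1.01 and −0.96) and without replicate 1 or 2 of Notch1+ (−0.97 and −0.85). Pigment epithelium and melanocyte genes were higher in 5 and lower in 1 of 15 cases, with a median of 0.92 (0.54 without replicate 2 of Glast+ and 0.58 without replicate 2 of Notch1+). Ttr, the melanocyte master factor gene Mitf (2.56), the opsin-like gene Rgr (1.54), which Müller glia share, and Pmel (1.51) were higher. Rpe65 (0.36), the isomerase that defines the epithelium, was not called, and in neither sort was its probe found on every array. Of 9 lens crystallin and lens genes 3 were higher and 1 was lower, with Crybb1 at 2.84 and Crybb3 at −2.03.

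Of 25 oxidative phosphorylation genes 12 were lower and 0 higher, with a median of −0.47, such as the complex I gene Ndufa1 (−1.46) and the ATP synthase gene Atp5j (−1.62, not called without replicate 1 of Notch1+ at −1.39). Leaving out replicate 3 of Glast+ left 7 of them lower. Of 26 ribosomal protein genes 5 were lower and 0 higher, and the lower count lay near the 18.5% of all genes. Their median was −0.35, at levels near the top of the scale, where differences are compressed. Sterol synthesis genes were higher in 7 and lower in 2 of 18 cases, with a median of 0.56 (0.31 without replicate 3 of Glast+, when none was lower), including the desaturase gene Sc5d (1.10) and the cyclase gene Lss (1.06). Of 19 glycolysis genes 2 were higher and 2 lower, with a median of 0.02 whose sign changed in 5 of 19 alternatives. The hexokinase gene Hk2 (3.05) and the lactate dehydrogenase gene Ldhb (1.62) were higher, and the pyruvate kinase gene Pkm (−1.67) and Slc2a1 were lower. Without replicate 3 of Notch1+ the higher members numbered 5.

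Signals that act on Müller glia were mixed. Of 30 BMP, TGF-beta and Wnt genes, 12 were higher and 6 lower, with a median of 0.04 whose sign changed in 4 of 19 alternatives. Ndp, the norrin that Müller glia secrete to guide retinal vessels, had levels of 14.08, 14.03 and 14.19 in the Glast+ arrays and 11.18, 10.32 and 12.79 in the Notch1+ arrays. It was higher in each Glast+ array, with a difference of 2.67 (SE 0.42, adjusted p = 7.25e-05). Tspan12, the norrin coreceptor of endothelium, was lower (−2.32), and the norrin receptor gene Fzd4 was not called (−0.22). The BMP receptor gene Bmpr1b (3.23, and 0.75 by another probe), the TGF-beta receptor gene Tgfbr1 (1.89) and Fzd5 (1.84) were higher, and Fzd6 (−3.62), Lef1 (−1.83) and Smad1 (−1.71) lower. Of 17 factors tied to Müller glia regeneration, 7 were higher and 2 lower, with a median of 0.10 whose sign changed in 3 of 19 alternatives. The nuclear factor I gene Nfix, which restrains proliferation of mature Müller glia, was higher (1.77), as were Nfia (0.95, not called without replicate 3 of Glast+ at 0.80 or replicate 1 of Notch1+ at 0.67), Stat3 (1.26) and the cytokine gene Tnf (4.47), which microglia make. The Hippo effector genes Yap1 (−1.22) and Wwtr1 (−2.35) were lower. Of 7 reprogramming genes, Sox2 and Klf4 (1.48) were higher and Tbx3 (−1.48) was lower, and the Klf4 call ended without replicate 3 of Glast+ (1.13) or of Notch1+ (0.89). The median of these 7 was −0.15, and its sign changed in 5 of 19 alternatives.

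The same sorts were also compared at P7 (2 Glast+ and 3 Notch1+ arrays, none shared with P14). There 1568 genes (12.4%) were called, 866 (6.87%) higher and 702 (5.57%) lower in Glast+ cells. Of the genes called at P14, 983 were called in the same direction at P7, which is 20.2% of the P14 calls and 62.7% of the P7 calls, and 56 were called in opposite directions. The difference between the sort differences of the 2 ages, tested in the same fit, was called for 1899 genes (15.1%), 1011 (8.02%) with the P14 difference further toward Glast+ and 888 (7.04%) further toward Notch1+. Among genes called at P14, 1613 had a called difference between ages in the same direction, that is 875 higher and 738 lower genes.

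The lists behaved unlike each other between the ages. The endothelial median was −4.03 at P7 and −4.38 at P14, and the microglial median 1.68 and 3.31. Müller glia genes had a median of 0.53 at P7 and 1.79 at P14, mitosis genes −0.29 and −2.25, pericyte genes −0.14 and −1.59, immediate-early and stress genes 0.52 and 1.78, and rod genes −1.32 and 0.31. These are medians without a test. Single members were tested: the sort difference of Aqp4 was 0.31 at P7 and 4.49 at P14, a change of 4.18 (SE 0.50, adjusted p = 6.81e-05). That of Nes was 1.17 at P7 and −3.36 at P14 (change −4.54, SE 0.38, adjusted p = 3.41e-06), and that of Top2a was −0.29 at P7 and −2.71 at P14 (change −2.42, SE 0.31, adjusted p = 0.000114). For Cdh5 the values were −4.0 at P7 and −4.86 at P14 (change −0.87, SE 0.53, adjusted p = 0.312), and for Tmem119 they were 1.95 at P7 and 4.89 at P14 (change 2.94, SE 0.42, adjusted p = 0.00026). Aqp4 was called at P14 and not at P7 (adjusted p = 0.686 at P7), whereas Cdh5 was called at both ages (adjusted p = 9.48e-06 at P7). The 2 ages have the same tie between sort and scan day.

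**Figure D5:**
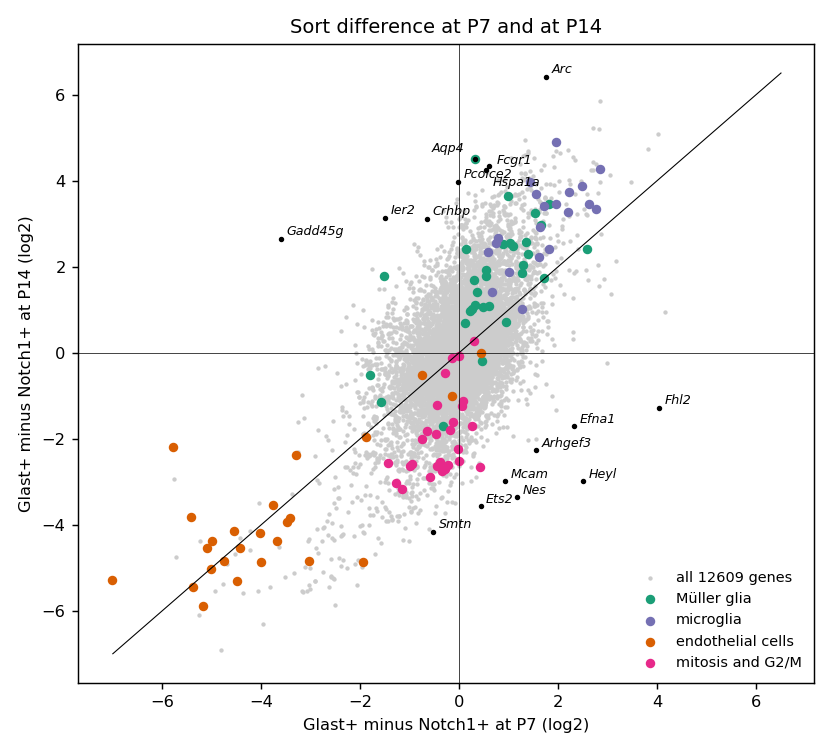
Glast+ minus Notch1+ difference (log2) of each of 12609 genes at P7 (x axis) and at P14 (y axis), with 4 lists coloured, the line of equal differences drawn and the 16 genes with the largest tested difference between ages named. Endothelial genes lie near the line, mitosis genes lie closer to 0 at P7 than at P14, and Gadd45g is lower at P7 and higher at P14.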

How the data were processed

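Labelled RNA from captured retinal cells was hybridized in a single channel to long-oligonucleotide arrays of 38880 spots. Per the file headers, arrays were read with GenePix Pro 4.1.1.4, and the deposited files hold each spot's median intensity, that of its local background and a flag for spots not found. The authors' processed values are linear intensity, which for nearly all bright spots equals the background-subtracted spot median (floor of 1) scaled by an array-specific factor of 0.327 to 2.53. Their tool is not given in the sources used here.

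With limma 3.58.1 (R 4.3.3), normexp with an offset of 50 was applied to every spot, and the 34312 transcript probes were then quantile normalized and log2 transformed. Probes found on every array of at least 1 of the 8 groups were kept (25264). Names came from accessions matched to RefSeq (GRCm38.p6): 22933 probes had 1 symbol, 0 several and 11379 none. Each gene was represented by its brightest kept probe (12609 genes, 4003 with more than 1 kept probe). Where probes of a named gene spanned over 2 (log2) or opposed, the furthest is given too. A group-means model over all 21 arrays with 13 residual degrees of freedom and empirical Bayes moderation gave two-sided p-values, Benjamini-Hochberg adjusted over all genes and called under 0.05. Where a probe was found on no array of a sort or saturated on all, the ratio is a bound ("at least N-fold"): the bright mean against, for each dim array, the higher of the probe's own signal and the lowest signal of any found probe. The number of arrays limits the precision. The model was tested on simulated data.

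The groups, 35 gene lists (670 of 769 entries tested, 99 not) and rules were chosen with earlier results of these data known. Named genes are 9 fixed genes, the 15 largest called non-overlapping differences per direction, list members (up to 6 called per direction with the smallest adjusted p, and others where a list is described) and the 8 largest called differences between ages per direction. Some genes this rule covers are not reported here. Alternatives are given at the end. Python 3.11.15 with pandas 2.3.3 and matplotlib 3.10.9 drew the plots.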

Additional observations from a re-analysis of the deposited data

Results flagged for a closer look

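The difference between the sorts was itself different at P14 and P7, by a test of that difference in the same limma fit, for 16 genes listed here: the 8 largest in each direction that also passed at P14. All 16 kept their call in each of 24 alternatives. Values are Glast+ minus Notch1+ (log2), and the P7 and P14 comparisons share no arrays.

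Toward Glast+ cells at P14, Gadd45g, a growth-arrest gene, changed by 6.25 (from −3.61 to 2.64, SE 1.10, adjusted p = 0.00128). Arc changed by 4.65 (from 1.76 to 6.41, SE 1.06, adjusted p = 0.00775), the immediate-early gene Ier2 by 4.63 (from −1.5 to 3.13, SE 0.69, adjusted p = 0.000378) and the chaperone gene Hspa1a by 3.72 (from 0.53 to 4.25, SE 0.83, adjusted p = 0.00666). The water channel gene Aqp4 changed by 4.18 (from 0.31 to 4.49, SE 0.50, adjusted p = 6.81e-05, and 0.21 at P14 by another probe), Pcolce2, a collagen-processing enhancer, by 4.0 (from −0.03 to 3.97, SE 0.49, adjusted p = 7.77e-05, and 0.35 at P14 by another probe), Crhbp, the corticotropin-releasing hormone binding protein, by 3.76 (from −0.65 to 3.11, SE 0.54, adjusted p = 0.000279) and the Fc receptor gene Fcgr1 by 3.73 (from 0.61 to 4.34, SE 0.36, adjusted p = 1.31e-05). The estimates of Gadd45g, Ier2, Crhbp and Pcolce2, the last close to 0 at P7, had opposite signs at the 2 ages, which is no test at each age.

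Toward Notch1+ cells at P14, Heyl, a Notch target of mural cells, changed by −5.50 (from 2.50 to −2.99, SE 0.67, adjusted p = 7.27e-05), and the LIM-domain gene Fhl2 by −5.32 (from 4.04 to −1.28, SE 0.44, adjusted p = 3.41e-06). Nes changed by −4.54 (from 1.17 to −3.36, SE 0.38, adjusted p = 3.41e-06, and −0.22 at P14 by another probe), the ephrin gene Efna1 by −4.03 (from 2.32 to −1.71, SE 0.41, adjusted p = 1.63e-05) and the factor gene Ets2 by −4.0 (from 0.43 to −3.57, SE 0.60, adjusted p = 0.000376). Mcam, an adhesion molecule of mural cells and endothelium, changed by −3.91 (from 0.93 to −2.99, SE 0.32, adjusted p = 3.41e-06), Arhgef3 by −3.84 (from 1.56 to −2.27, SE 0.45, adjusted p = 5.86e-05) and Smtn, the smoothelin of smooth muscle, by −3.63 (from −0.53 to −4.16, SE 0.54, adjusted p = 0.000381). By the sign of the estimates, Heyl, Fhl2, Nes, Efna1, Ets2, Mcam and Arhgef3 lay on the Glast+ side at P7 and on the Notch1+ side at P14. For Ets2 the P7 estimate (0.43) was smaller than the SE of its change (0.60).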

How the results depend on the processing

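The sort difference at P14 stayed within 1.5 times its 4865 calls in all settings but 2, which gave 3106 calls (1621 higher and 1485 lower) when only the compared arrays were fitted and 3008 (1594 and 1414) with a 2-fold minimum. Its leave-one-out range was 4087 to 5359 (2154 to 2805 higher, 1933 to 2554 lower). Median scaling gave 1493 higher and 2868 lower with an all-gene median of −0.16, and the authors' values an all-gene median of 0.13. Replicate numbers did not pair the sorts (deviations of equal-numbered arrays correlated at −0.08, −0.10 and −0.05), and a replicate block gave 4836 calls. Scan day as a random block gave 3984. The comparison at P7 had 312 higher genes with median scaling, 1633 higher with the authors' values, 4070 calls (2202 and 1868) with array weights, 906 (477 and 429) with scan day as a random block, and 983 (484 higher) with a 2-fold minimum. Its leave-one-out range was 567 to 1337 (279 to 672 higher, 288 to 665 lower), lowest without Glast+ P7 replicate 2. The difference between ages had 784 calls (337 and 447) with median scaling, 4054 (2217 and 1837) with array weights and 929 (519 and 410) with only the compared arrays, and a leave-one-out range of 972 to 3014 (550 to 1628 toward Glast+, 422 to 1386 toward Notch1+), lowest without Glast+ P7 replicate 2 and highest without Notch1+ P14 replicate 3. The causes were not tested, and leaving out an array also lowers the number of samples.

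Among named genes, 5113 of 5266 gene-by-setting values kept their direction and side of the threshold, 112 lost the call, 39 gained it and 2 reversed: Tnc −0.06 (probes found on all 6 P14 arrays); Fdps 0.26 (mean of a gene's probes). Among lists, sterol synthesis had 4 higher members with scan day as a block, rods 2 and the Notch pathway 3, and with the authors' values pigment epithelium had 8 and lens 5. The filter of probes found on all 6 P14 arrays was chosen after seeing the data and gave 4246 calls. Saturation and dim spots limit sizes at both ends of the scale, and the Notch1+ arrays held more spots at or below background.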

Other observations

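Some gene families taken by symbol, after the values had been seen, showed further genes of immune cells in the Glast+ cells. The counts are to be set against 20.1% higher and 18.5% lower over all genes. Of 8 chemokine receptor genes 2 were higher and 1 lower, and of 24 integrin genes 6 were higher and 1 lower. Of 29 chemokine genes 13 were higher and 2 lower, including Cxcl10 (4.38), Ccl3 (4.13), Ccl9 (3.60) and Ccl2 (3.48), and Ccl19 (−2.68) in the other direction. Of 9 genes of MHC class II and its peptide loading 7 were higher and 0 lower, including H2-DMa (4.25), H2-Oa (4.01), H2-DMb1 (3.44) and Cd74 (2.48). All 5 Fc receptor genes were higher, with Fcgr2b at 4.57, and 5 of 10 Toll-like receptor genes were, with Tlr7 (3.84), Tlr13 (3.46) and Tlr2 (3.26). The H2-Oa probe was found on 1 of 3 Notch1+ arrays and those of Ccl2, Tlr7 and Tlr13 on 2 of 3. The microglia list was higher in the same arrays, and its part in these values was not tested.

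In the families below, called members are likewise to be set against 20.1% higher and 18.5% lower over all genes. Of 62 protocadherin genes 25 were higher and 3 lower. Among 22 organic anion and cation transporter genes 4 were higher and 4 lower, the latter including the brain-barrier genes Slco1c1 (−4.39), Slc22a8 (−4.35) and Slco1a4 (−3.47). Of 30 amino acid transporter genes 6 were higher and 4 lower, with Slc38a5 (−5.02) and Slc7a5 (−3.62) lower and Slc7a8 (2.06, and −0.31 by another probe) higher. Among 58 potassium channel genes 18 were higher and 6 lower, with Kcnk13 (4.53) and Kcnk1 (3.07) higher and Kcnq1 (−5.31, and −0.25 by another probe) and Kcne3 (found on no Glast+ array and at least 16.1-fold lower) lower. Of 14 Sox genes 5 were higher and 4 lower: besides Sox2, Sox8 and Sox9 the higher members were Sox5 (2.29) and Sox6 (0.97), and besides Sox17 and Sox18 the lower ones were Sox7 (−4.78) and Sox13 (−1.87). Sox6 was not called without replicate 1 or 3 of Glast+ (0.82 and 0.86) or replicate 1 or 2 of Notch1+ (0.69 and 0.84), nor in 5 other alternatives. Of 18 aldehyde dehydrogenase genes 8 were higher and 0 lower, including Aldh1a7 (2.29) and Aldh5a1 (1.88, and −1.74 by another probe). Of 15 claudin genes 6 were higher, with Cldn10 (4.52, and 0.12 by another probe) ahead, and Cldn5 was lower.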
